A study of Mus musculus with 2 samples.

Results

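The epidermal growth factor (EGF) ligands, the ErbB receptors they bind and the receptor inhibitor Errfi1 were compared between newborn skin without keratin 5 and normal newborn skin. The members were fixed by name as 6 ligands (Hbegf, Areg, Ereg, Tgfa, Btc and Egf), 3 receptors (Egfr, Erbb2 and Erbb3) and 1 feedback inhibitor (Errfi1). Every probe set was used whose platform annotation gives 1 symbol that is among these names. This gave 14 of the 10833 probe sets with 1 symbol, for 8 of the 8251 genes on the array. Areg and Erbb2 matched no such probe set and were not analysed here.

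The K5-/- group (ko_skin) was skin of newborn mice that lack keratin 5, an intermediate filament protein of the basal epidermal layer, and serves as a model of the blistering disorder epidermolysis bullosa simplex (EBS). The other group (wt_skin) was skin of newborn wildtype mice. Neither group received a treatment, and the strain and the sex are not given in the sources used here. Skin was taken right after birth, RNA of 6 animals was pooled in each group, and 1 array was run for each pool. The source names say epidermis, but no step that separates epidermis from dermis is described. The variation between animals is therefore not in the data, no test was possible, and every value below describes a difference between 2 arrays.

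Ligands of the EGF family are made as membrane proteins and cut loose by ADAM proteases. They bind ErbB receptor tyrosine kinases, which pair and signal through the RAS-MAP kinase and PI3-kinase routes. In skin, Egfr signalling drives keratinocyte proliferation and migration and hair follicle growth, and Hbegf, Areg and Ereg are known as keratinocyte growth factors whose release rises in wounds. Errfi1 (also called Mig-6) is made after receptor activation and binds the active kinase to shut it down.

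Errfi1 and the ligand gene Hbegf were higher in the knockout by nearly 2-fold, the highest ratios among the 5 members that cleared the detection floor in both pools. Of 7 members with a ratio or a bound, 0 were placed at 2-fold or more, where 2.24% of the 5976 measured genes were. For the ligand genes Egf and Btc only a lower bound could be given, so these may or may not reach 2-fold, and with a lower floor Btc was past 2-fold. The receptor gene Erbb3 differed little, and 2 probe sets of the receptor gene Egfr had opposite signs (log2 ratios 0.30 and -0.28). Ereg was too dim on both arrays for a ratio. A gene is called measured when its signal exceeded a floor on at least 1 array. The floor was 246.7 signal units, the 40th percentile of all signals, and lower signals were raised to it before a ratio was taken. Of the 14 member probe sets, 7 cleared the floor on both arrays, 2 on the knockout array alone and 5 on neither. Taken by probe set, 0 of the 9 measured member probe sets differed by 2-fold, against 2.25% of all 7067 measured probe sets with 1 symbol (1.51% higher and 0.736% lower).

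**Figure D1:**
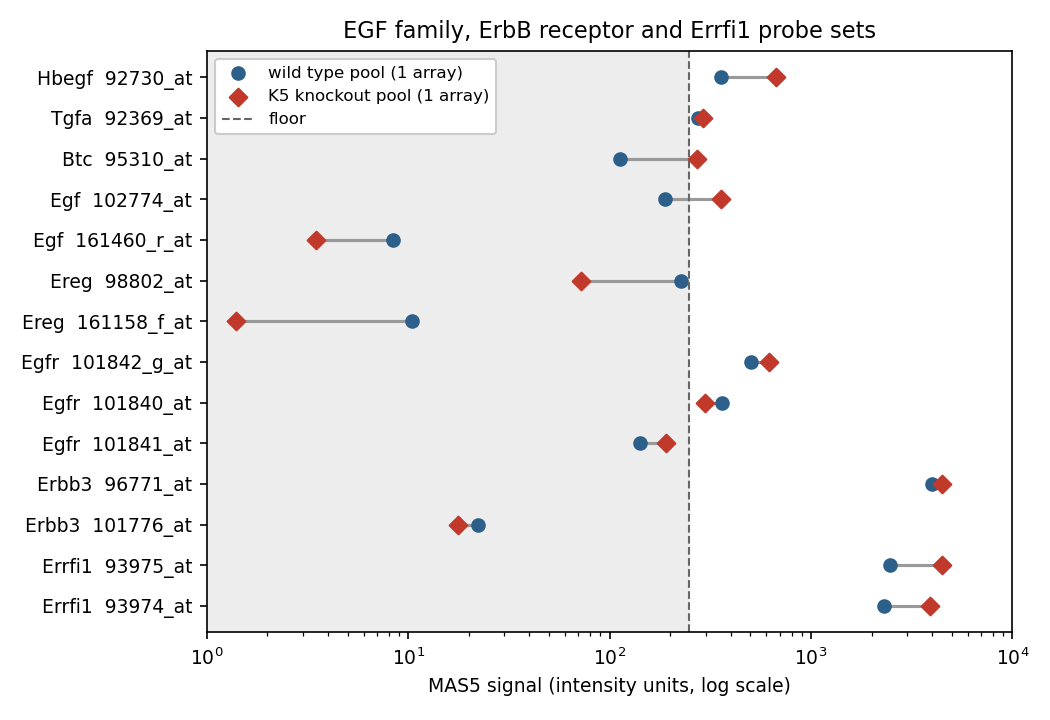
MAS5 signal of each of the 14 member probe sets on a log axis, with wild type as circles and K5 knockout as diamonds, each from 1 pooled array. The dashed line is the floor of 246.7, and the 5 probe sets with both points in the shaded range have no ratio. The lines are widest above the floor for Hbegf and for both Errfi1 probe sets.

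The inhibitor gene Errfi1 is represented by 2 probe sets made from different source sequences. Probe set 93975_at read 4473 in the knockout pool and 2458 in the wild type pool. Probe set 93974_at read 3880.2 in the knockout pool and 2300.4 in the wild type pool. The knockout signal was the higher one on both, by 1.82-fold (log2 ratio 0.86) and 1.69-fold (log2 ratio 0.75). The 2 ratios differed from each other by 0.11. As a yardstick, 838 genes have 2 or more probe sets that cleared the floor in both pools, and the standard deviation among the ratios of a gene's own probe sets was 0.30 on the log2 scale. Both Errfi1 ratios exceeded that spread, and 23.6% of all measured genes were higher by more than it. The spread comes from probe sets on the same 2 arrays and holds no variation between animals, pools or repeat arrays.

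Errfi1 also lay at the edge of what genes of its signal level showed. Measured genes were cut into 10 equal groups by mean signal, and both Errfi1 probe sets fall in the group from 2678 to 4405, where the central 95% of 597 genes had log2 ratios from -0.75 to 0.69. Both Errfi1 values were above that range. Across all measured genes, 2.36% had a ratio at least as high as that of 93975_at and 3.60% as high as that of 93974_at.

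Errfi1 has 2 transcription starts in the RefSeq promoter table (GRCm38.p6), and the 250 bases before each are shown because Errfi1 was the member with a like difference on 2 separate probe sets. Both lie on the plus strand of chromosome 4, at chr4:150853546-150853795 and chr4:150854820-150855069, written 5′ to 3′. Capitals mark a match to the cyclic AMP response element (CRE) letters TGACGTCA.
Errfi1 upstream start: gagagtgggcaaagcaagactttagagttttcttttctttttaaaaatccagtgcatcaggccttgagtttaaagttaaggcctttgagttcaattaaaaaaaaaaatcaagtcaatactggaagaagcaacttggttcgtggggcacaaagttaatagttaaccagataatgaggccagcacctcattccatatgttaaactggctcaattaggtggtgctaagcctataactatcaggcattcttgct
Errfi1 downstream start: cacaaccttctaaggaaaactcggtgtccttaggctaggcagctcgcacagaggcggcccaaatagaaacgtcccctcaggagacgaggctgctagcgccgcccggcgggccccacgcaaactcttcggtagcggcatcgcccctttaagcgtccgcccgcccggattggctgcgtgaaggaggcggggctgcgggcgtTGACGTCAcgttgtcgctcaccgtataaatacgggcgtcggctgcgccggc

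The 2 windows differ in base composition, with 38.0% G and C before the upstream start and 64.8% before the downstream start, against a median of 52.4% over all windows of this length. The CRE letters begin 51 bases before the downstream start and are absent from the upstream window. They occur in 1.55% of the 32851 windows in the table. Both windows, read on both strands, were also searched for the AP-1 letters TGANTCA (found in 6.75% of all windows), the EGR letters GCGNGGGCG (4.70%) and the CArG box of serum response factor (1.47%). No match to these 3 was in either window. Windows of Tgfa, Btc, Egf, Egfr and Erbb2, searched the same way, held no match to any of these letters or the CArG box. The window of Areg held the CRE letters, 61 bases before its start. Windows of Hbegf, Ereg and Erbb3 were not searched. The probe sets cannot be assigned to one start or the other, and a match describes letters, not binding.

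Hbegf, the gene of heparin-binding EGF-like growth factor, had the highest ratio in the main setting among members above the floor on both arrays, while Errfi1 was above it with the pseudocount, quantile normalization, the lowess correction and the highest floor. Its 1 probe set, 92730_at, read 669.8 in the knockout pool and 357 in the wild type pool, so that both signals cleared the floor and the knockout was 1.87-fold higher (log2 ratio 0.91). Of all measured genes, 2.09% had a ratio as high. In its group of mean signals, from 456 to 619.8, the central 95% of 597 genes ran from -0.85 to 0.97, which includes Hbegf. No other probe set is there to set beside this value, and it was smaller when low signals were treated otherwise. With a pseudocount in place of the floor it was 0.60, and with a floor at the 60th percentile only a bound of 0.02 remained.

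Egf and Btc were above the floor in the knockout only, so their ratios are lower bounds. Egf, the founding ligand of the family, read 356 in the knockout pool and 189 in the wild type pool on 102774_at, which makes it at least 1.44-fold higher. Its second probe set, 161460_r_at, read 3.50 and 8.40 and has no ratio. Betacellulin (Btc), which can bind both Egfr and Erbb4, read 270.3 in the knockout pool and 112 in the wild type pool on 95310_at, at least 1.10-fold higher. Both bounds rest on the knockout signal alone, which was just over the floor for Btc (270.3) and further over it for Egf (356). With the floor at the 25th percentile, 86.9 signal units, both arrays cleared it, and the log2 ratio was 0.91 for Egf and 1.27 for Btc.

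Tgfa, transforming growth factor alpha, which keratinocytes use as an autocrine Egfr ligand, read 292 in the knockout pool and 275 in the wild type pool on its probe set 92369_at. The signals were 1.06-fold apart (log2 ratio 0.09), well within the spread between probe sets of a gene. The sign of this ratio turned with quantile normalization (-0.07) and with the lowess correction, where it was -0.0027. No direction is therefore given for Tgfa.

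Epiregulin (Ereg), a ligand of Egfr and Erbb4, was not measured. Probe set 98802_at read 71.9 in the knockout pool and 225 in the wild type pool, and 161158_f_at read 1.40 and 10.4. All 4 readings were under the floor, where signals have no reliable order, and no ratio was taken in the main setting. With the floor at the 25th percentile 98802_at was above it in the wild type alone, with a bound of -1.37 on the log2 scale. Of the 5 ligand genes with a probe set, 2 cleared the floor on both arrays, Hbegf and Tgfa. Egf and Btc counted as measured through the knockout array alone, which fixes their sign, so no direction is given for the ligands as a group.

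Egfr, the receptor of all the ligands above, gave discordant readings. Probe set 101842_g_at read 622 in the knockout pool and 505 in the wild type pool, a log2 ratio of 0.30. Probe set 101840_at read 298 in the knockout pool and 362 in the wild type pool, a log2 ratio of -0.28. The third probe set, 101841_at, comes from the same source sequence as 101842_g_at and read 189.9 and 141, under the floor on both arrays. The 2 measured probe sets were 0.58 apart with opposite signs, and their mean was 0.01. These arrays thus show no common direction for Egfr.

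Erbb3, the receptor that binds neuregulins and signals through its partner because its own kinase is weak, was nearly level. Probe set 96771_at read 4476 in the knockout pool and 3985 in the wild type pool, 1.12-fold apart (log2 ratio 0.17). Of all measured genes, 35.6% had a ratio as high. The second probe set, 101776_at, read 17.6 and 22.2 and was not measured. Of 6 further ligand and receptor genes, Erbb4, the fourth receptor, and the neuregulin gene Nrg3 were on the array, and each has 1 probe set that was under the floor on both arrays (17.4 in the knockout pool and 20.3 in the wild type pool for Erbb4).

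**Figure D2:**
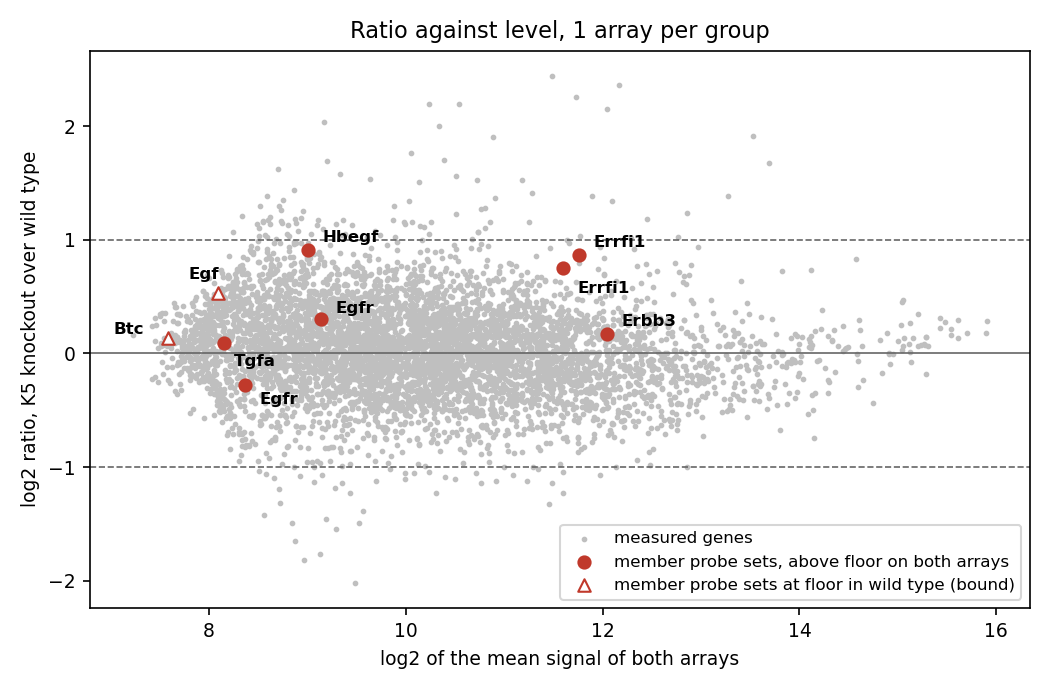
Log2 ratio of K5 knockout over wild type against the log2 mean signal for the 5976 measured genes (grey) and the 9 measured member probe sets (red, with open triangles for lower bounds). Dashed lines mark 2-fold. Both Errfi1 points sit near the upper edge at a high level, Hbegf sits as high at a low level, and the Egfr points lie on opposite sides of 0.

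Taking 1 probe set a gene, the one with the highest mean signal, the 7 measured members had log2 ratios from 0.09 to 0.91 with a median of 0.30. That median is the value of Egfr (101842_g_at), whose other measured probe set was at -0.28. The median over all measured genes was 0.04. The signs of the 7 are not counted, because Egf and Btc could enter only as higher, the sign of Tgfa turned with the scaling and the Egfr probe sets were opposed. Of the 7, 4 lay further from 0 than the spread between probe sets of a gene, where 41.7% of all measured genes did. The 4 were Hbegf, Errfi1, Egf and Egfr. Egf was among them by a bound that rests on the knockout array alone. Egfr passed by less than 0.01 and with its other probe set on the opposite side. The median was 0.17 as the mean over probe sets and with plain probe sets only, meaning those whose names carry no letter code for shared or less selective probes. Among all measured genes, 1.54% were higher by 2-fold or more and 0.703% were lower by 2-fold or more, which is 92 and 42 genes, and with quantile normalization the split was 79 and 58.

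**Figure D3:**
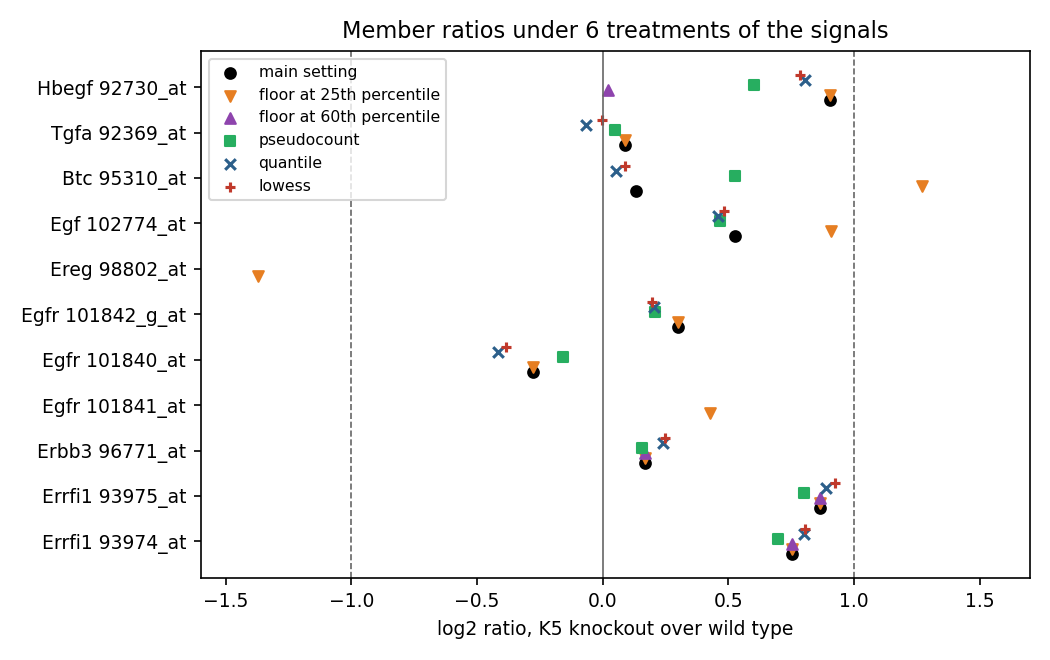
Log2 ratio of each member probe set under the main setting and 5 other treatments of the signals, with dashed lines at 2-fold. The Errfi1 and Erbb3 points stay together, those of Hbegf and Btc spread widely, and Ereg has a value with the lowest floor only.

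Genes of ligand shedding and processing had a median near that of all genes. The list of proteases and partners held 14 genes, of which 12 were on the array and 10 were measured. Of these, 6 were higher and 4 lower, where 53.9% of all measured genes were higher. The median log2 ratio was 0.06 and 0 were past 2-fold. Adam12, a metalloprotease gene that was above the floor in the knockout alone (382 against 224), was at least 1.55-fold higher. It could count only as higher. Adam10, counted as lower at -0.02, had a log2 ratio of 0.38 on its other probe set. The metalloprotease genes Adam19, Adam9 and Adam15 had ratios of 0.38, 0.22 and 0.09. Cd9, a tetraspanin that associates with the membrane form of Hbegf, was at -0.06, the proprotein convertase gene Furin at -0.07 and Cd44, whose heparan sulphate forms hold Hbegf, at -0.10. Adam17, the main sheddase of Hbegf, Areg, Ereg and Tgfa, was under the floor on both arrays, with signals of 45.0 in the knockout pool and 80.5 in the wild type pool.

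Adaptors and the RAS-MAP kinase cascade had no member past 2-fold. Of 23 genes on the array, 15 were measured, with a median of 0.16. Of these, 9 were higher and 6 lower, where 53.9% of all measured genes were higher. Sos1 read 244.3 in the knockout pool, just under the floor, and 327 in the wild type pool, so it could count only as lower. Grb2, the adaptor that couples ErbB receptors to RAS activation, read 1681 in the knockout pool and 1016 in the wild type pool (log2 ratio 0.73). Rras, a RAS relative, was at 0.70 and the RAF kinase gene Araf at 0.69. Sos2, which encodes a RAS activator that Grb2 carries, was at -0.02. Elk1, a transcription factor that MAP kinases phosphorylate, was at -0.22 and the MAP kinase kinase gene Map2k2 at -0.25.

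The PI3-kinase, phospholipase, SRC and STAT genes were divided as well. Of 19 on the array, 16 were measured, with a median of 0.11 and 0 past 2-fold. Of these, 10 were higher and 6 lower, where 53.9% of all measured genes were higher. Src, Stat5b and Prkca were above the floor in the knockout alone and could count only as higher. Over the 13 genes above the floor on both arrays the median was 0.06. Pik3ca, the catalytic PI3-kinase subunit, was at 0.82 on its brighter probe set and at 0.21 on the other. Pdpk1, the kinase that activates AKT, was at 0.56 and the SRC family gene Yes1 at 0.49. Its relative Fyn was lowest, with 1226 in the knockout pool and 2012 in the wild type pool (log2 ratio -0.71), followed by Akt1 at -0.39 and the regulatory subunit gene Pik3r2 at -0.32.

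In the list of feedback inhibitors and receptor degradation genes, Socs3 and Dusp1 were past 2-fold and the rest was not. The list does not hold Errfi1 itself, and some of its inhibitors act on other signalling steps than the receptors. Of 21 genes on the array, 19 were measured, with a median of 0.15. Of these, 13 were higher and 6 lower, where 53.9% of all measured genes were higher. Ptprj was above the floor in the knockout alone and could count only as higher. The share at least 2-fold higher was 2 of 19, where it was 1.54% of all measured genes. The list was drawn up with earlier results of these data known, so this count is no independent evidence about the receptors. Socs3 was 3.99-fold higher on 1 probe set and had a log2 ratio of 1.80 on the other. Dusp1, a MAP kinase phosphatase gene induced by growth factors and stress, was 2.62-fold higher (14354 against 5488). Dusp6, the ERK phosphatase gene often read as a measure of ERK activity, was at 0.14 (2303 against 2089), and Spry4, which encodes an inhibitor of RAS signalling, was at -0.29. Stam, an endosomal sorting gene, was at 0.56, the phosphatase gene Ptpn2 at -0.30 and the endosomal GTPase gene Rab7 at -0.35. Lrig1, which encodes a protein that promotes ErbB degradation, was under the floor on both arrays.

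Transcripts that rise after EGF receptor activation in epithelial cells had the highest median of the lists, 0.91. Of 35 on the array, 28 were measured, 23 higher and 5 lower, where 53.9% of all measured genes were higher. At least 2-fold higher were 11 of the 28, against 1.54% of all measured genes, and at least 2-fold lower were 0, against 0.703%. Of the 11, Fosl1 passed through the knockout array alone, and over genes above the floor on both arrays the count was 10 of 27. These 11 were the AP-1 genes Fos, Fosb, Fosl1, Junb and Atf3, the early response genes Egr1, Zfp36 and Ccn1, the wound keratin genes Krt6a and Krt16, and the angiogenic factor gene Vegfa. Serum, stress and tissue damage induce most of these genes too, and high ratios of several of them were known when the list was drawn up. The count is therefore no independent evidence about the receptor.

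Fosl1, which encodes the AP-1 protein FRA-1, read 571 in the knockout pool and 76.7 in the wild type pool, at least 2.31-fold higher. Ccn1, a matrix-associated growth signal, was 2.88-fold higher (3456 against 1202). Junb was 2.58-fold higher on its brighter probe set and had a log2 ratio of 1.62 on the other. Of the 11, Vegfa was the one that came out under 2-fold in some alternatives, and its wild type signal, 251, was just over the floor. Fosl1, Junb, Atf3 and Zfp36 were at least 2-fold higher in each alternative that gave them a value.

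The other 17 measured transcripts of the list ran from -0.24 to 0.997. Ier3, a survival gene, was at 0.997, just short of 2-fold, the early gene Ier2 at 0.92, the AP-1 gene Jun at 0.92, the plasminogen activator gene Plat at 0.89 and the urokinase receptor gene Plaur at 0.83. The lowest were near or under 0. Ccnd1, the cyclin gene through which growth factors start the cell cycle, was at -0.05, Mcl1, a survival gene, at -0.08 and Egr2 at -0.24. Of the members under the floor on both arrays, Ptgs2, the inducible prostaglandin synthase gene, read 96.3 and 47.0, and the protease gene Mmp9 read 46.9 and 45.4.

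**Figure D4:**
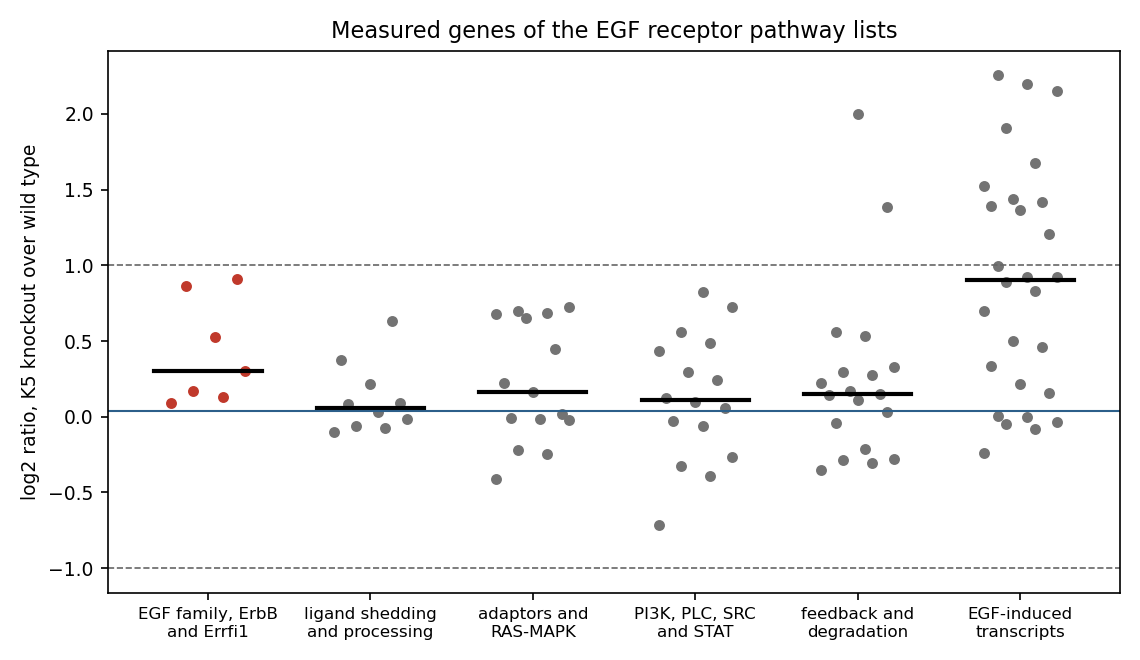
Log2 ratio of K5 knockout over wild type for each measured gene of the EGF family (red) and of 5 pathway lists (grey), with each list's median as a black bar, the median of all measured genes as a blue line and 2-fold as dashed lines. The medians run from 0.06 for ligand shedding to 0.91 for EGF-induced transcripts, with 0.30 for the family itself.

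Markers of several cell types moved with these differences, and their part in them was not tested. In pooled skin, fewer cells of a type and less RNA per cell cannot be told apart. All 4 measured basal keratinocyte markers of 7 were lower in the knockout, with a median of -0.46 and summed signals of 7351 against 9943, and Krt5, Krt14 and Krt15 were under the floor on both arrays, so the keratin 5 loss itself could not be read. All 12 measured hair follicle and sebaceous markers were higher on the probe set counted (median 0.36, summed signals 27478 against 20778). So were all 8 measured macrophage and monocyte markers (median 0.58, 13031 against 8807) and all 11 skeletal muscle markers (median 0.24, 81417 against 68922). Of all measured genes, 53.9% were higher. The hair marker Krt34 was above the floor in the knockout alone and could count only as higher. Other probe sets of the hair markers Krt35 (-0.27) and Lef1 (-0.35) and the muscle marker Mylpf (-0.03) were lower. The ones counted were at 0.06, 0.02 and 0.23. A second probe set of the macrophage gene C1qb went the other way (347 in the knockout pool, 695 in the wild type pool), while the one counted had a log2 ratio of 0.96. The brightest in these lists were Trp63 (-0.54) and Col17a1 (-0.29) for basal cells, Krt71 (0.79) and Krt25 (0.27) for hair, Cd14 (0.58) and C1qa (0.25) for macrophages, and Acta1 (0.06) and Tnnc2 (0.15) for muscle. Suprabasal markers had a median of 0.29 with 5 of 7 higher, the brightest being Lor (0.29) and Krt1 (0.28) and the highest ratio that of Ivl (1.27), and dermal fibroblast markers one of 0.31 with 6 of 7 higher, the brightest being Col1a1 (0.31) and Col1a2 (0.34) and the highest ratio that of Pdgfra (1.02). Endothelial markers had a median of 0.27, with Cdh5 at -0.19, Emcn at 0.27 and Vwf at 1.05, and adipocyte markers one of 0.11, with Adipoq at 0.11, Lpl at 0.36 and Lep at 1.52. Ivl, Pdgfra, Vwf and Lep were the markers past 2-fold, all higher, 1 in each of these 4 lists and 0 in the others. That is 1 of 7 measured markers in the suprabasal, fibroblast and endothelial lists and 1 of 5 in the adipocyte list. Of all measured genes, 1.54% were at least 2-fold higher. Another probe set of Pdgfra, under the floor in the wild type, gave a lower bound of 0.34. Medians were at or just below 0 for mast cell (-0.0048, with Cma1 at 0.13 and Cpa3 at -0.05), melanocyte (-0.04, with Dct at -0.17 and Pmel at -0.05) and neutrophil markers (-0.08, with Csf3r at 0.40 and Camp at -0.84), and the median was -0.17 for Schwann cell markers, with Pmp22 at -0.17 and Sox10 at -0.03. Other probe sets of the Schwann cell marker Mbp (0.89, against -0.19 counted) and the endothelial marker Tie1 (0.68, against -0.22 counted) went the other way. So did other probe sets of Cma1 (-0.12), Cpa3 (0.27) and the fibroblast marker Col3a1 (-0.04 and -0.06, against 0.27 counted). RNA integrity, read as the 3 prime over 5 prime signal ratio of Actb, was 1.04 for the knockout pool and 1.06 for the wild type pool.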

How the data were processed

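The deposited values are intensities, 1 MAS5 signal per probe set on a linear scale, per the submitters' processing notes. Those notes give no MAS5 version and no scaling target, and detection calls were not used here. Total RNA (2 µg per array) was labelled with biotin, per the labels' protocols. Each array was scaled to a common mean over the 12422 non-control probe sets, trimmed by 2% at each end. The trimmed means before scaling were 993.9 and 994.2, so scaling altered little and a change in total RNA per cell cannot be seen. Signals under the floor were raised to it, and log2 ratios were taken in Python 3.11.15. Symbols came from the platform annotation. Of its 10833 single-symbol probe sets, 10817 had an Entrez identifier in the RefSeq table of GRCm38.p6, and 0 symbols needed updating.

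The ratio calculation was tested on simulated data. The alternatives were other floors, a pseudocount equal to the floor, quantile normalization, a lowess correction (statsmodels 0.14.6), the mean over probe sets, plain probe sets only, and genes above the floor on both arrays. Named were all members, of each pathway list the genes past 2-fold and the 3 highest and 3 lowest ratios above the floor on both arrays, and the 2 brightest of each marker list. Others (Erbb4, Nrg3, Adam12, Adam17, Dusp6, Lrig1, Ptgs2, Mmp9, Ier3, Ier2, Jun, Plat, Plaur, Ivl, Pdgfra, Vwf, Lep, C1qb and the undetected basal keratins) were named after their values were seen. So were Sos1, Src, Stat5b, Prkca, Ptprj, Krt34, Krt35, Lef1, Mylpf, Adam10, Mbp, Tie1 and Col3a1. The members and lists were chosen with earlier results of these data known. With 2 arrays, their number limits the precision throughout.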

Additional observations from a re-analysis of the deposited data

How the results depend on the processing

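Both Errfi1 probe sets and Erbb3 kept their direction under all 5 alternatives run on single probe sets, with Errfi1 between 0.70 and 0.92. The number of members past 2-fold was 0 in the main setting and under 7 of the 8 alternatives. It was 2 once the floor was lowered to the 25th percentile, where Btc was at 1.27 and Ereg at a bound of -1.37, 2 of 8 members beside 4.23% of the 7061 genes measured in that setting. With that floor Egf was at 0.91 and the third Egfr probe set at 0.43. With the floor at the 60th percentile, 659.7 signal units, Hbegf (92730_at) had a bound of 0.022, 3 members were measured, and Tgfa, Btc, Egf and Egfr had no value. With the pseudocount Hbegf was at 0.60 and Btc at 0.53. With plain probe sets only, Egfr was at -0.28. The family median stayed between 0.17 and 0.58. The medians and 2-fold counts of the pathway lists moved by less than the limits used (0.30 on the log2 scale, 1.5 times for a count). Vegfa, 1.44 in the main setting, was at 0.05 under the highest floor. Over all genes, the counts 2-fold higher and lower were 92 and 42 in the main setting, 205 and 94 under the lowest floor, 44 and 19 under the highest, and 39 and 15 with the pseudocount. No paired analysis was possible because each group is 1 array. Signals near or under the floor, as those of Tgfa, Btc, Egf and Ereg are, limit what can be said of most ligands.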
